A study of Homo sapiens with 10 samples.

Results

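The serpins and plasminogen activators described here are 8 listed genes of pericellular proteolysis, SERPINA1, SERPINA3, SERPINE2, SERPINB2, SERPINB5, PLAU, PLAUR and PLAT. They were chosen by name, with earlier results of these data known, and all probe sets annotated to a listed gene alone were taken. Of the 8, 7 genes had such probe sets, 15 in all, out of 19775 genes on the arrays. SERPINB2 was not analysed here. Of the 7 genes, 5 passed the filter on low signal, a log2 value of 5 on at least 2 arrays, and were tested among 14929 genes. They were SERPINA1, SERPINE2, PLAU, PLAT and PLAUR, and the other two, SERPINA3 and SERPINB5, are given as values. A member that passes such a filter only through the group where it is high had to differ, so counts over the 5 support nothing about the list.

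Serpins are protease inhibitors that offer a bait loop to a target protease and trap it in an inactive complex, although some members of the family have lost this activity. Plasminogen activators are serine proteases that cut plasminogen into plasmin, a broad protease that degrades fibrin and matrix proteins and activates some matrix metalloproteinases. Urokinase, the product of PLAU, acts on the cell surface, where PLAUR encodes its receptor, while PLAT encodes the tissue-type activator best known from the lysis of blood clots. In breast cancer, high urokinase is a known marker of poor outcome, and MDA-MB-231 cells are known for abundant urokinase and urokinase receptor.

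Total RNA was measured on 10 Affymetrix expression arrays, 2 for each of 5 lines of MDA-MB-231, an established human triple-negative breast cancer line. The parental line was grown in culture and is labelled sensitive to SM-164, a Smac mimetic that antagonises the IAP proteins. The lines T2, T3, T6 and T8 were tumour cells isolated from xenografts in SCID mice whose tumours had regrown after treatment; SM-164 was injected into a vein, 5 mg/kg per dose, on 5 days of each week for 2 weeks. T2 and T3 are labelled resistant to SM-164 and T6 and T8 sensitive. SCID mice lack mature lymphocytes but keep other host cells, and no xenograft without the drug was measured here, so growth in mice, the drug and cell isolation cannot be told apart in any comparison with the parental line. Whether the 2 arrays of a line stand for separate cultures is not in the labels. The p-values therefore reflect the spread from array to array, which may be technical.

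Of the 10 markers of the line, VIM, CD44, KRT18, KRT8 and EGFR lay above log2 10 on every array. Of the 3 receptor genes by which triple-negative cancers are defined, PGR stayed below log2 5, but ESR1 read 6.52 to 6.78 and ERBB2 8.82 to 9.28, so these arrays do not show their absence. CDH1 lay at 4.47 to 5.46 and EPCAM at 8.13 to 9.25. Array medians ran from log2 5.43 to 5.57, so a probe set near log2 5 is near background, where an array compresses differences. Of the tested markers of other cell types, 2 of 4 for macrophages, 1 of 5 for fibroblasts and pericytes and 1 of 4 for hepatocytes were lower in the mean of the tumours than in parental cells. Of 4 for blood cells 1 was higher and 1 lower, and of 7 for endothelium 4 were higher. Among these 4, CDH5 and TIE1 passed the filter only through the T8 arrays, so their calls are no test. Over all genes tested, 25.5% were higher and 16.8% lower in the same comparison (limma, adjusted p under 0.05). Counts this small beside such shares say little about a cell type. In these bulk RNAs, fewer cells of a type and less RNA per cell cannot be told apart.

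The start regions of the 4 genes with the clearest shared direction are shown first, because 2 of these genes fell and 2 rose in every tumour. Each window runs from 250 bases before to 50 bases after a RefSeq start (GRCh38.p14), 5′ to 3′ on the gene's strand. Capitals mark matches on either strand to the AP-1 motif TGANTCA, the STAT motif TTCNNNGAA, TATAAA, the Sp1 motif GGGCGG or the ETS motif AGGAAG. The windows lie at chr14:94390586-94390885 (minus strand) for SERPINA1, chr10:73910882-73911181 (plus strand) for PLAU, chr19:43670120-43670419 (minus strand) for PLAUR and chr2:224038591-224038890 (minus strand) for SERPINE2.
SERPINA1: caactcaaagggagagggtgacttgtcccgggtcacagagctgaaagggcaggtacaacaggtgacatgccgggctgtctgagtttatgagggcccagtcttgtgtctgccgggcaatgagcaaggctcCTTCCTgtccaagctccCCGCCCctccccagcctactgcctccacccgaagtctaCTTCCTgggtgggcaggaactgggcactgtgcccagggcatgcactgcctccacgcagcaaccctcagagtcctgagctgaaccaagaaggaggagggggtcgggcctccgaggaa
PLAU: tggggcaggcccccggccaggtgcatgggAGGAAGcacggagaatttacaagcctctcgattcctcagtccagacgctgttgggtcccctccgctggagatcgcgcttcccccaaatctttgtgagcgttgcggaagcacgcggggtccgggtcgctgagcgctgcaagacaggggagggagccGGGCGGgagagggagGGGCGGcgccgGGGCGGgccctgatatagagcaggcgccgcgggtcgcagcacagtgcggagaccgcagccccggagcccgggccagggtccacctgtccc
PLAUR: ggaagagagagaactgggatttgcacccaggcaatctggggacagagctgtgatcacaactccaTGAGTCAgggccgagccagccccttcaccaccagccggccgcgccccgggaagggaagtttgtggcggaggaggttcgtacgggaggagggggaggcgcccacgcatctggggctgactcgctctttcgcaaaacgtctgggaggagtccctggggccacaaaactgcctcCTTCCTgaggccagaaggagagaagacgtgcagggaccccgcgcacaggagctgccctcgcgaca
SERPINE2: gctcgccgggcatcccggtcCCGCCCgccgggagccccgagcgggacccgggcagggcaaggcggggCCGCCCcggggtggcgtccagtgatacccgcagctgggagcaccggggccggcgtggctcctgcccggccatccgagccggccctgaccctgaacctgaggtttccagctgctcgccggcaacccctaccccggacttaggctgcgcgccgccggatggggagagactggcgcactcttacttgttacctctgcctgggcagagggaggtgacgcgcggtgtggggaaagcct

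Of these 4 windows, that of PLAUR held an AP-1 match, TGAGTCA, beginning at base 65. The AP-1 motif was present in 7.71% of the 35116 promoter windows of this length. PLAU held 3 Sp1 matches and 1 ETS match, SERPINA1 held 1 Sp1 and 2 ETS matches, and SERPINE2 held 2 Sp1 matches. PLAUR also held 1 ETS match. Over all windows the Sp1 motif was present in 15786 and the ETS motif in 11816 (33.6%). A further SERPINA1 window at chr14:94388553-94388852 and a further PLAU window at chr10:73910360-73910659 held none of the motifs searched, and TATAAA (11.5% of all windows) and the STAT motif (7.66%) had no match in the 4 windows shown. For SERPINE2 a further window at chr2:224031429-224031728 (minus strand) held 1 Sp1 match. A match describes letters in these windows and is not evidence of a bound factor.

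SERPINA1 and PLAU fell, and SERPINE2 and PLAUR rose, in each of the 4 tumours against parental cells. PLAT went both ways: it rose in T3 and fell in T2, T6 and T8. All 5 tested members were called between the mean of the tumours and parental cells, 2 higher and 3 lower, where 42.3% of all genes tested were called, 25.5% higher and 16.8% lower (limma, Benjamini-Hochberg adjusted p under 0.05). Those 3801 higher and 2513 lower genes became 3390 and 3344 after repeated quantile normalisation, with the directions of the 5 members kept. The median absolute difference was 0.96 over the 5 members and 0.18 over all genes tested, both on the log2 scale. Since the members were chosen with earlier results of these data known, this contrast supports nothing about the list. In each single comparison of a tumour with parental cells all 5 were called as well, beside 33.0% of all genes in T2, 37.9% in T3, 34.5% in T6 and 43.8% in T8. These comparisons share the parental arrays.

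**Figure D1:**
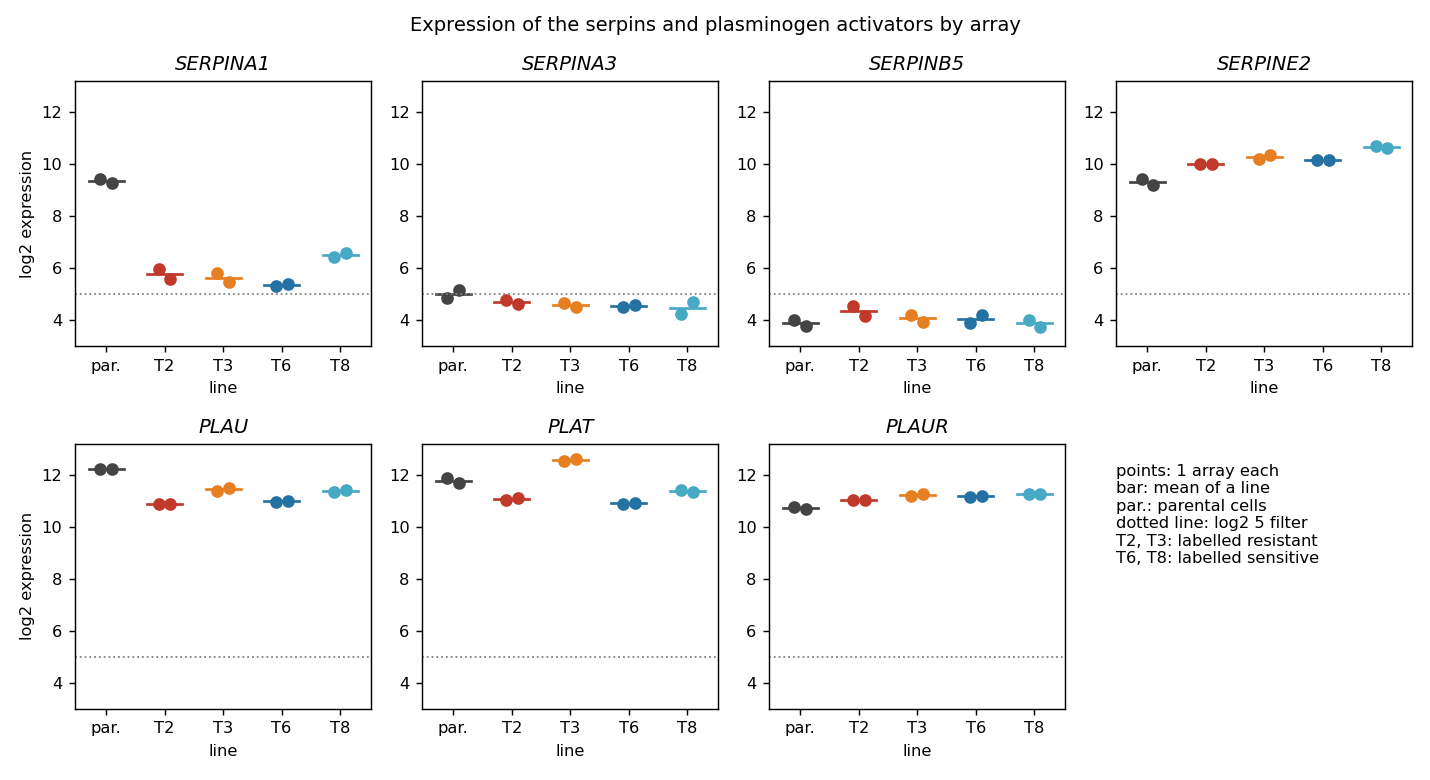
Log2 expression of 7 genes by line, 1 point per array and a bar at the mean of each line; the dotted line marks the filter at log2 5. SERPINA1 drops from above 9 in parental cells to below 7 in every tumour, PLAT is highest in T3, and SERPINA3 and SERPINB5 lie at or below the dotted line on nearly all arrays.

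SERPINA1 encodes alpha-1 antitrypsin, a secreted inhibitor of neutrophil elastase made mainly by the liver. Its log2 values were 9.45 and 9.27 in parental cells, 5.97 and 5.56 in T2, 5.81 and 5.45 in T3, 5.30 and 5.40 in T6, and 6.45 and 6.58 in T8. Parental arrays stood far above all others, and both T8 arrays stood above those of the other tumours. Against parental cells the gene was lower by 7.18-fold in T8, by 12.1-fold in T2, by 13.3-fold in T3 and by 16.1-fold in T6. The mean difference of the tumours in log2 units was -3.54 ± 0.12 (SE; 8 tumour and 2 parental arrays, adjusted p = 1.19e-11). The values of T2, T3 and T6 lay near the array medians, that is near background, so the size of these differences and folds is uncertain. T6, T3 and T2, in rising order, did not differ between neighbours beyond their spread (adjusted p = 0.204 and 0.564), while T8 exceeded T2 by 0.75 ± 0.15 (adjusted p = 0.00161).

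A further SERPINA1 probe set stood at 8.19 in parental cells, 4.19 in T2, 3.89 in T3, 3.72 in T6 and 5.24 in T8 (means of 2 arrays). It passed the filter only through the parental and T8 arrays and had to differ, so it is a description with no test, and its other tumour values lay at background. The remaining pair of SERPINA1 probe sets lay at or near background in all lines, from 3.58 to 5.25, and was not tested. With the mean over the 4 probe sets the difference was -2.00. That mean also passed the filter only through the parental and T8 arrays, so its call is no test. The same holds for the main probe set under a filter at log2 6. The highest adjusted p over all 21 alternatives, 7.10e-08, came from the limma fit without a trend. Both probe sets that passed the filter are of the less specific kind, whose probes may match other transcripts, and without that kind SERPINA1 had no tested value. Of the hepatocyte markers, APOA1 fell (-0.27 ± 0.10, adjusted p = 0.0391), ALB, the albumin gene, lay between 3.69 and 4.08 on all arrays, and 3 of 7 were below log2 5 in each line. Their mean log2 level per array was 5.20 to 5.33 in parental cells and 5.02 to 5.34 in the tumours, and their part in the SERPINA1 difference was not tested.

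SERPINA1 lies in a cluster of clade A serpin genes, of which no other tested gene was called. In the RefSeq gene order from SERPINA10 to SERPINA3 there are 9 protein-coding genes, of which 8 had a probe set and 3 were tested. SERPINA9, whose log2 values were 6.72 to 7.23, differed by 0.15 ± 0.10 between tumours and parental cells (adjusted p = 0.254), and SERPINA4, at 5.07 to 5.51, differed by 0.03 ± 0.12 (adjusted p = 0.874). SERPINA10, SERPINA6, SERPINA12, SERPINA5 and SERPINA3 were not tested, and their highest value on any array was 5.16.

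SERPINA3 encodes alpha-1 antichymotrypsin, an acute phase inhibitor of cathepsin G. Its probe set read 4.85 and 5.16 in parental cells, 4.77 and 4.63 in T2, 4.67 and 4.51 in T3, 4.51 and 4.57 in T6, and 4.23 and 4.69 in T8. All tumour arrays lay below both parental arrays, but only 1 of the 10 arrays reached log2 5. Without a filter on signal the difference of the tumours was -0.43 ± 0.13 (adjusted p = 0.0157 over 54613 probe sets), which is near background.

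SERPINB5 encodes maspin, a serpin without protease inhibition that is known as a tumour suppressor of breast epithelium. Its brighter probe set ranged from 3.75 in T8 and parental cells to 4.54 in T2 and the dimmer from 3.10 to 3.34, and neither reached log2 5 on any array. Without a filter neither was called (0.20 ± 0.12, adjusted p = 0.290, and -0.02 ± 0.08, adjusted p = 0.894). The gene was not detectable above background in any line.

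SERPINE2 encodes protease nexin-1, a cell-bound inhibitor of thrombin, urokinase and plasmin. Its log2 values were 9.42 and 9.20 in parental cells, 9.99 and 10.02 in T2, 10.20 and 10.34 in T3, 10.16 on both arrays of T6, and 10.69 and 10.63 in T8. Every tumour array exceeded both parental arrays, and T8 was highest. The mean rise was 0.96 ± 0.06 (1.95-fold; adjusted p = 1.43e-08), from 1.62-fold in T2 to 2.55-fold in T8. T2, T6 and T3 did not differ between neighbours (adjusted p = 0.244 and 0.358), and T8 exceeded T3 by 0.39 ± 0.08 (adjusted p = 0.00335). T3 exceeded T2 by 0.27 ± 0.08 (adjusted p = 0.0180), a call that ended without T3 replicate 2 (0.168), among other alternatives. A dimmer SERPINE2 probe set stayed between 3.82 and 4.15 on all arrays, with a difference of 0.00 in the fit without a filter, so only 1 of its probe sets shows the rise. Averaging both lowered it to 0.48, still called (adjusted p of at most 0.000103 over 22 alternatives), and ended the call between T3 and T8 (adjusted p = 0.290). For the 7 endothelial markers the mean log2 level per array was 5.31 to 5.37 in parental cells, 5.44 to 5.64 in T2, T3 and T6, and 5.85 to 5.88 in T8. The markers did not share 1 pattern: KDR and ENG were called higher in the mean of the tumours and highest in T8, while PECAM1 (7.25 in parental cells, 6.73 in T8) and VWF (4.99 and 4.65) were lowest in T8 and TEK differed by -0.07. CDH5 and TIE1 were also higher in the mean of the tumours and highest in T8. They passed the filter only through the T8 arrays and had to differ, so their calls are no test. CDH5 stood near or below log2 5 in every line: 3.59 in parental cells, 3.55 in T2, 3.35 in T3, 4.27 in T6 and 5.16 in T8. In parental cells, T2 and T3, in that order, ENG stood at 5.98, 6.53 and 6.74. In the same order KDR stood at 5.15, 5.59 and 5.55, and TIE1 at 4.46, 4.82 and 4.67. PECAM1 stood at 7.25, 7.24 and 7.24, VWF at 4.99, 5.08 and 4.86, and TEK at 5.96, 6.12 and 5.84. The part of the endothelial markers in the SERPINE2 difference was not tested.

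**Figure D2:**
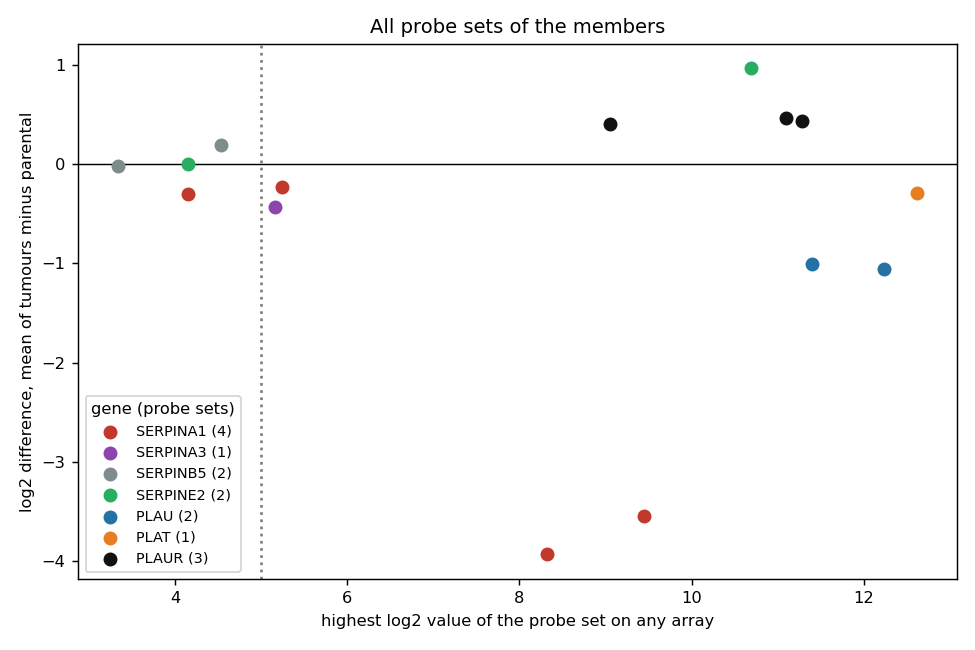
Each point is 1 of the 15 probe sets of the members, with its highest log2 value on any array on the horizontal axis and its log2 difference, mean of the tumours minus parental cells, on the vertical axis. The 2 bright SERPINA1 probe sets lie at -3.54 and -3.93, the PLAU pair near -1 and the 3 PLAUR probe sets between 0.40 and 0.46, while points near or left of the dotted line at log2 5 lie between -0.43 and 0.20.

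PLAU, the urokinase gene, fell in all 4 tumours, with T2 and T6 below T3 and T8. Its log2 values were 12.23 on both parental arrays, 10.87 and 10.89 in T2, 11.38 and 11.51 in T3, 10.94 and 11.01 in T6, and 11.36 and 11.40 in T8. Every tumour array lay below the parental ones, and T2 and T6 lay below T3 and T8. The mean fall was -1.06 ± 0.05 (2.08-fold; adjusted p = 3.19e-10), with differences of -0.78 for T3, -0.85 for T8, -1.25 for T6 and -1.35 for T2. T2 did not differ from T6 (-0.10 ± 0.06, adjusted p = 0.356) nor T8 from T3 (0.07 ± 0.06 higher in T3, adjusted p = 0.487), and the 4 comparisons across these pairs were each called (adjusted p from 4.66e-06 to 0.000599). This pairing holds 1 resistant and 1 sensitive tumour on each side. The other PLAU probe set also fell (SE 0.06, adjusted p = 2.39e-09 over 33341 probe sets, of which 36.5% were called), with means of 11.35 in parental cells, 9.95 in T2, 10.60 in T3, 10.24 in T6 and 10.60 in T8. On it T2 and T6 again lay below T3 and T8, but T2 (9.96 and 9.94) also lay below T6 (10.18 and 10.30). With the mean over both probe sets, limma put T2 minus T6 at -0.19 ± 0.06, not called (adjusted p = 0.0740). The closeness of T2 and T6 thus rests on 1 probe set.

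PLAUR, the urokinase receptor gene, rose a little in every tumour while its ligand fell. Its log2 values were 10.78 and 10.70 in parental cells, 11.03 and 11.05 in T2, 11.18 and 11.25 in T3, 11.17 and 11.19 in T6, and 11.27 and 11.28 in T8. The tumour arrays did not overlap with the parental ones. The mean rise was 0.44 ± 0.05 (1.35-fold; adjusted p = 3.14e-06), and the other probe sets gave 0.46 ± 0.05 (adjusted p = 4.44e-06) and 0.40 ± 0.06 (adjusted p = 0.000163). T2 was lowest of the tumours, below T8 by 0.24 ± 0.06 (adjusted p = 0.00662) and below T3 by 0.18 ± 0.06 (adjusted p = 0.0334). Both calls ended under some alternatives (adjusted p up to 0.584 for T8, without the less specific probe sets, and up to 0.195 for T3, without T3 replicate 2). T6, T3 and T8 did not differ between neighbours (adjusted p = 0.707 and 0.524).

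PLAT, the gene of the tissue-type activator, was the member that varied most among the tumours. Its log2 values were 11.87 and 11.68 in parental cells, 11.02 and 11.10 in T2, 12.55 and 12.63 in T3, 10.89 and 10.91 in T6, and 11.41 and 11.36 in T8. T3 alone stood above parental cells, by 0.81 ± 0.07 (1.76-fold; adjusted p = 2.64e-07). T6 stood lowest, at -0.87 ± 0.07 (adjusted p = 1.72e-07), with T2 at -0.71 and T8 at -0.39. In the order T6, T2, T8, parental, T3, each step but that from T6 to T2 (0.16 ± 0.07, adjusted p = 0.158) was called. The mean over the 4 tumours was -0.29 ± 0.05 (adjusted p = 0.000463). It was -0.66 without T3, -0.15 without T2 (adjusted p = 0.0279) and -0.10 without T6, where it was no longer called (adjusted p = 0.213). PLAT had 1 probe set, of the less specific kind.

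**Figure D3:**
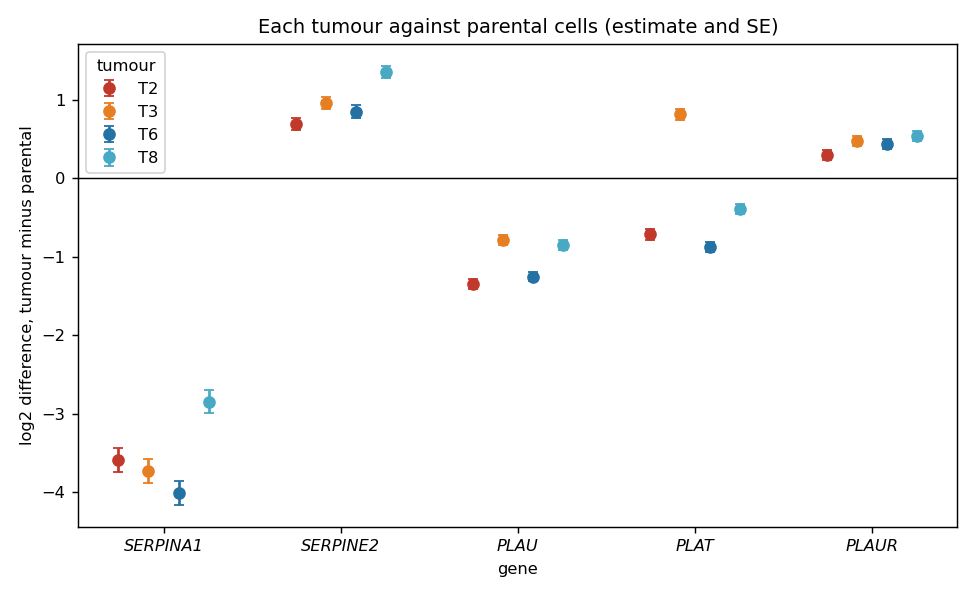
Log2 difference of each tumour from parental cells for the 5 tested genes, as the estimate of the limma fit with its SE. SERPINA1 and PLAU lie below 0 and SERPINE2 and PLAUR above 0 in all 4 tumours, and PLAT lies at 0.81 in T3 but between -0.87 and -0.39 in the others.

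The activators and the receptor thus changed unequally within the same arrays. Relative to parental cells, PLAT against PLAU was higher by 1.60 in T3 (mean of 2 arrays, log2), by 0.64 in T2, 0.46 in T8 and 0.38 in T6. PLAUR against PLAU was higher by 1.26 in T3, 1.39 in T8, 1.65 in T2 and 1.69 in T6. These are differences of changes, not of levels, since levels of different probe sets cannot be set against each other.

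**Figure D4:**
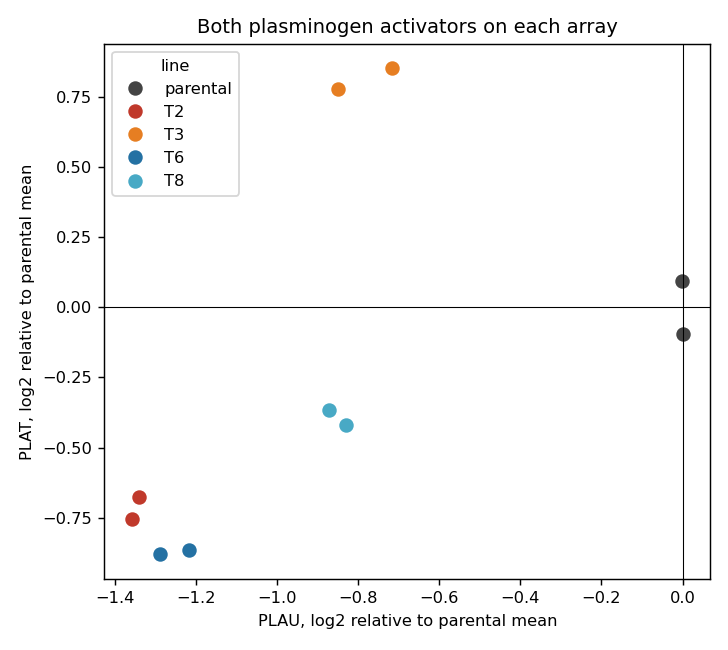
Log2 values of PLAU (horizontal) and PLAT (vertical) on each of the 10 arrays relative to the mean of the parental arrays. T2 and T6 lie together at the lower left, T8 nearer to parental cells on both axes, and T3 above 0 for PLAT with PLAU at -0.78.

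Between the tumours labelled resistant and those labelled sensitive, PLAT and SERPINE2 differed over arrays, but neither separated the classes. PLAT was higher in the resistant tumours by 0.68 ± 0.05 (4 arrays against 4; adjusted p = 4.98e-07) through T3, while the mean of T2, 11.06, lay between those of T6, 10.90, and T8, 11.38. SERPINE2 was lower by -0.27 ± 0.06 (adjusted p = 0.00421), with T6 (10.16) between T2 (10.01) and T3 (10.27), and the call ended with the mean over its probe sets (-0.11, adjusted p = 0.197). SERPINA1 (-0.23 ± 0.11, adjusted p = 0.139), PLAUR (-0.10 ± 0.04, adjusted p = 0.107) and PLAU (-0.01 ± 0.04, adjusted p = 0.848) were not called. A repeated quantile normalisation called SERPINA1 (-0.28, adjusted p = 0.0426), as did leaving out T2 replicate 1 (-0.33). The 2 called of 5, 1 higher and 1 lower, stand beside 19.0% of all genes tested, 4.76% higher and 14.2% lower. That split of 711 higher and 2126 lower genes became 1342 and 1628 after repeated quantile normalisation. When each tumour counted as 1 replicate, limma called 0 of the 5, with 0 at an unadjusted p under 0.05, and it called 0 of all 14929 genes, 661 of them having an unadjusted p under 0.05. PLAT then stood at 0.68 ± 0.53 and SERPINE2 at -0.27 ± 0.21 (adjusted p = 0.894 each). With the line as a random block 4 genes were called, none of them a member.

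Between pairs of tumours the members differed most often where T2 met T8 and least often where T2 met T6. The same held for all genes tested, with 4743 and 1412 called, so this order is not particular to the members. Over all genes T2 minus T3 followed closely with 4594, and it led after repeated quantile normalisation (5267 against 4923). After that step the members tied at 4 of 5 for T2 minus T8 and T6 minus T8. With some single arrays left out, both the first and the last place over all genes changed, so the order is not firm. Between T2 and T8 all 5 were called and lower in T2, beside 22.1% of all genes called lower in T2. Between T2 and T6 limma called 0 of the 5, with 3 at an unadjusted p under 0.05, beside 9.46% of all genes called in either direction. T2 was lower than T3 in 4 of 5, all but SERPINA1 (16.9% of all genes), and T6 was lower than T8 in 4 of 5, all but PLAUR (10.4%). T3 exceeded T6 in 2 of 5, PLAU and PLAT (11.3%). Between T3 and T8 3 of 5 were called (18.4%), PLAT higher in T3 (4.66%) and SERPINA1 and SERPINE2 lower (13.8%). A missed threshold does not show that T2 and T6 had equal levels. The shares over all genes rest on few arrays: with 1 array left out, the genes called ranged from 428 to 1631 for T2 minus T6 (1412 with all arrays), from 940 to 2638 for T6 minus T8 (2253), from 1234 to 3186 for T3 minus T8 (2750), from 2196 to 4040 for T3 minus T6 (3730) and from 2922 to 5071 for T2 minus T8 (4743). The lowest counts came without T6 replicate 2, T6 replicate 1, T8 replicate 1, T6 replicate 1 and T8 replicate 1. The difference in SERPINA1 (0.42 ± 0.15, adjusted p = 0.0967), was called without T2 replicate 2 (0.62, adjusted p = 0.0265), and PLAT was called after repeated quantile normalisation (0.19, adjusted p = 0.0221).

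The tested genes with the most similar profile were found by the root mean square distance between the differences of the 4 tumours from parental cells, among 14928 genes, for the members that changed by at least log2 1. Nearest to SERPINA1 were CEMIP (0.61), which takes part in hyaluronan breakdown, OLFML2A (0.65) and HLA-DPA1 (0.68), a class II antigen presentation gene. In none of the 3 was T8 the highest tumour, as it was for SERPINA1: CEMIP differed from parental cells by -3.62 in T8 and -3.17 in T6. Nearest to PLAU were TES (0.11), which encodes a focal adhesion protein, LYST (0.17), a gene of lysosome traffic, and BTN3A3 (0.17). TES differed from parental cells by -1.20 in both T2 and T6, by -0.67 in T3 and by -0.74 in T8.

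Of 26 serpin genes with a probe set that are no members, 12 were tested, of which 4 rose and 2 fell in the mean of the tumours, a share near the 42.3% called over all genes. Clade A gave 0 calls of 2 tested genes. Of 5 clade B genes, SERPINB8 rose (0.43 ± 0.07, adjusted p = 0.000182) and SERPINB9, an intracellular inhibitor of granzyme B, fell (-1.04 ± 0.07, adjusted p = 2.75e-08), from 9.13 in parental cells to 8.30 in T2, 7.36 in T3, 8.44 in T6 and 8.25 in T8. Of 5 genes of clades C to I, SERPINI1, the gene of neuroserpin, an inhibitor of the tissue-type activator, rose (1.44 ± 0.13, adjusted p = 4.09e-07), from near background, so the size is uncertain. It stood at 5.18 in parental cells, 6.17 in T2, 7.58 in T3, 6.03 in T6 and 6.73 in T8, so it was highest in T3, as was PLAT. SERPINF1 (0.46 ± 0.13, adjusted p = 0.0119) and SERPIND1 (0.45 ± 0.13, adjusted p = 0.0105), a thrombin inhibitor, also rose near background, and SERPINH1, a collagen chaperone, fell (-0.19 ± 0.05, adjusted p = 0.00489).

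A further list held plasminogen, its receptors, clearance receptors and related proteases and inhibitors. Of its 14 tested genes 1 rose and 3 fell, beside 25.5% higher and 16.8% lower over all genes. The median difference was 0.02 beside 0.0015 for all genes. SORL1, a sorting receptor that binds urokinase complexes among other ligands, fell by 1.62 on the log2 scale (SE 0.10, adjusted p = 8.30e-09); its mean was 8.15 in parental cells and 6.33 to 6.64 in the tumours. MRC2, an endocytic collagen receptor that associates with the urokinase receptor, was lower (-0.35 ± 0.08, adjusted p = 0.00206), and the lipoprotein receptor gene LRP8 was higher (0.23 ± 0.07, adjusted p = 0.0182). PLG, plasminogen itself, lay near background at 5.20 to 5.79 and was not called (0.14 ± 0.13, adjusted p = 0.406). Of 12 tested genes of other surface serine proteases and Kunitz inhibitors, 2 rose and 4 fell, again beside 25.5% higher and 16.8% lower over all genes. The serine protease HTRA1 (-1.15 ± 0.06, adjusted p = 1.00e-09) and TFPI2 (-0.82 ± 0.06, adjusted p = 4.40e-08), an inhibitor of plasmin, fell, and the thrombin receptor F2R rose (0.80 ± 0.11, adjusted p = 2.94e-05). Of the target proteases of the serpins 0 of 4 tested non-members were called by limma, and CTSG, the cathepsin G gene (-0.21 ± 0.13, adjusted p = 0.208), and F2, the prothrombin gene (-0.15 ± 0.13, adjusted p = 0.371), differed most.

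**Figure D5:**
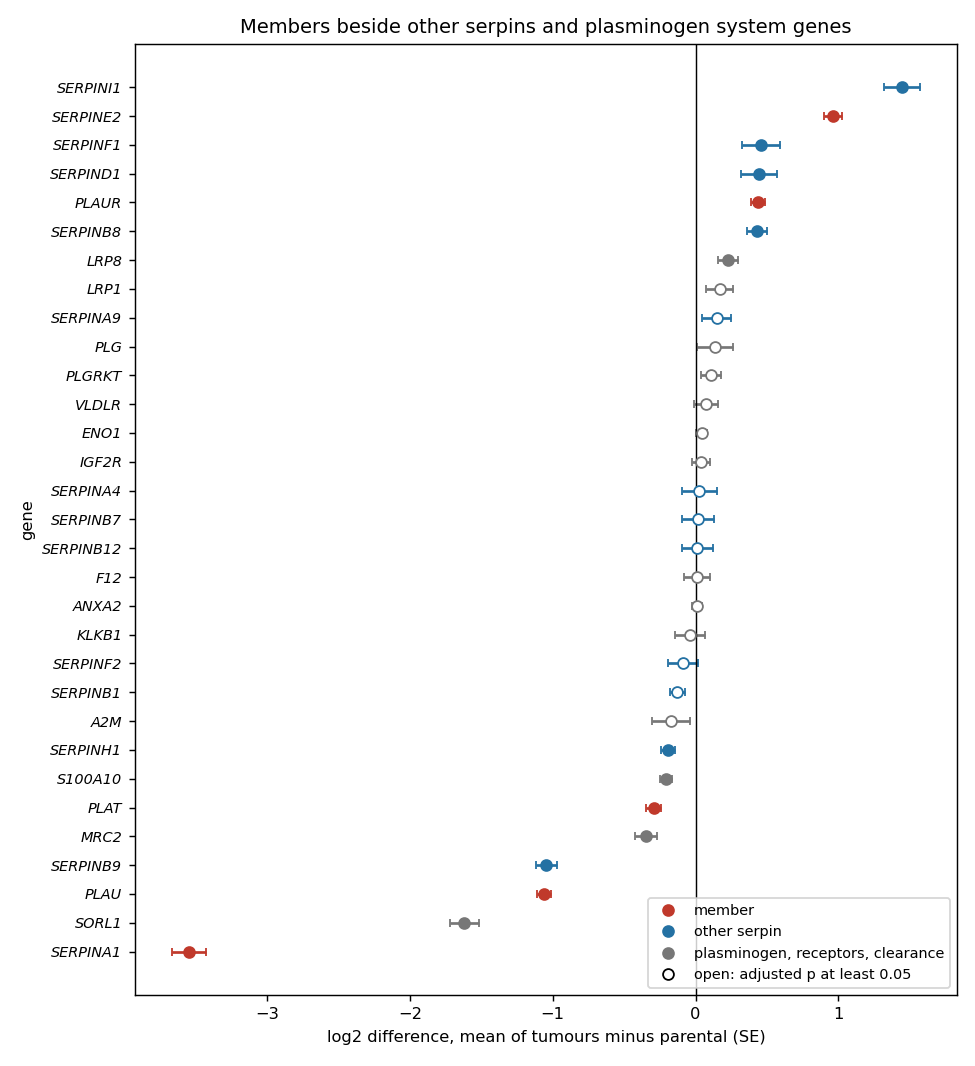
Log2 difference of the mean of the tumours from parental cells, with its SE, for the 5 tested members (red), other tested serpins (blue) and the list of plasminogen, its receptors, clearance and related genes (grey). Open points have an adjusted p of at least 0.05. SERPINA1 lies farthest left at -3.54 and SERPINI1 farthest right at 1.44, and most grey points lie near 0.

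Factors known to act on these genes were also measured. Of 13 tested acute phase and STAT3 genes, the pathway that induces SERPINA1 and SERPINA3 in liver, 6 rose and 1 fell, beside 25.5% higher and 16.8% lower over all genes. The interleukin 6 receptor gene IL6R rose by 0.72 ± 0.10 (adjusted p = 5.70e-05), from near background, so the size is uncertain. Its means were 5.24 in parental cells, 6.44 in T2, 5.61 in T3, 6.13 in T6 and 5.67 in T8. SOCS3, a feedback inhibitor of STAT3, rose by 0.59 ± 0.10 (adjusted p = 0.000276) and LIF, a cytokine of the interleukin 6 family, by 0.42 ± 0.07 (adjusted p = 0.000250). Of 13 AP-1 and ETS factors, which are known to drive PLAU and PLAUR, 6 rose and 1 fell as well, beside the same shares. ETS1 rose by 0.85 ± 0.08 (adjusted p = 8.29e-07), FOS by 0.80 ± 0.09 (adjusted p = 3.22e-06) and JUNB by 0.67 ± 0.07 (adjusted p = 2.98e-06). FOS stood at 5.95 in parental cells, 6.47 in T2, 7.36 in T3, 6.35 in T6 and 6.83 in T8. Whether these factors bear on the members was not tested.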

How the data were processed

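The authors deposited log2 expression values for each array; affy, RMA and limma are named per the submitters' processing notes, and their versions and settings are not given in the sources used here. RMA corrects background, quantile-normalises and summarises probes, so values near background are compressed. Of 54675 probe sets, 62 controls were left out and 41091 had 1 gene symbol, brought up to date through Entrez numbers for 41037. A gene was represented by its brightest probe set on average. Fits used limma 3.58.1 (R 4.3.3), lmFit and eBayes with a trend, with 1 coefficient per line over the 10 arrays, or with the mean of each line and the tumour as replicate (2 residual degrees of freedom). P-values were Benjamini-Hochberg adjusted over all genes, or over all probe sets for single probe sets, and the scripts were tested on simulated data. An array has no read depth; the number of arrays limits the precision. The members, lists and tests were chosen with earlier results of these data known. The non-member genes named were, per list, the called genes with the 3 largest differences between tumours and parental cells, or the 2 largest where none was called; SERPINH1, PLG and the marker genes given beside a result were chosen after their values were seen. SERPINB2 was not analysed here. Replicate numbers did not pair the lines. Alternatives covered scaling, filter, probe set choice, trend, replicate block and each array or tumour left out.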

Additional observations from a re-analysis of the deposited data

Results flagged for a closer look

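PLAT changed in opposite directions against parental cells in T3 and in the other tumours, and the difference between them passed the test each time. T3 exceeded T2 by 1.53 ± 0.07 (limma, adjusted p = 4.64e-10), T6 by 1.69 ± 0.07 (adjusted p = 2.92e-10) and T8 by 1.21 ± 0.07 (adjusted p = 3.66e-08). Both arrays of T3 lay above every other array. PLAT has 1 probe set here, so no other probe set bears on it.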

How the results depend on the processing

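The directions of SERPINA1, SERPINE2, PLAU, PLAUR and PLAT between tumours and parental cells held under every alternative that gave a value, and the calls held but for PLAT without T6. For SERPINA1, the mean over probe sets and the filter at log2 6 were passed only through the parental and T8 arrays. Its calls under these alternatives are no test. Without the less specific probe sets, SERPINA1, PLAU and PLAT had no tested value, so 2 members were called in place of 5 between tumours and parental cells, 1 in place of 2 between resistant and sensitive tumours over arrays, and 12 in place of 38 over the 10 pairs of lines (8 of SERPINE2 and 4 of the 6 of PLAUR, which lost T2 minus T3 and T2 minus T8). The mean over probe sets left 1 member called between resistant and sensitive tumours. Leaving out an array or tumour gave 4 to 5 members called against parental cells, 2 to 3 between the classes over arrays, 0 with the tumour as replicate and 36 to 38 over pairs. Over all genes it gave 4099 to 7071 calls in place of 6314 and 1389 to 3535 in place of 2837, and the random block gave 4 in place of 0. Of the counts over all genes for these 2 comparisons, those that moved by over 1.5 times were 4099 without parental replicate 2 and, for the classes, 1582 without T3 replicate 1, 1559 and 1389 without T6 replicate 1 or 2, and 1522 without T8 replicate 1. For T6 minus parental cells the 5149 calls became 3422 without parental replicate 2 and 3255 or 3299 without T6 replicate 1 or 2. Of the values of single members under the alternatives, 1114 kept direction and side of the threshold, 19 lost a call, 4 gained one and 14 changed sign. With the replicate block all 60 member results, called or not, kept direction and side of the threshold, and 5 members were called against parental cells. Deviations of same-numbered arrays correlated between lines at -0.39 to 0.50, over 0.1 in 4 of 10 pairs of lines, so the numbers do not pair the samples. The correlations were positive among parental cells, T6 and T8 and between T2 and T3, and negative in every other pair of lines. A deviation shared in that way is not covered by a block on the replicate number, and its part in the calls was not tested.

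Signs turned only where no call had been made. For the classes, over arrays and with the tumour as replicate, PLAU went from -0.01 to 0.0247 after repeated quantile normalisation and ranged from -0.0467 to 0.0193 with 1 array left out, and PLAUR went from -0.10 to 0.0169 without the less specific probe sets. PLAUR in T3 minus T8 turned to 0.14 without those probe sets, 0.00283 with the mean over probe sets and 0.0126 after repeated quantile normalisation, and in T6 minus T8 to 0.0422 without those probe sets. SERPINA1 in T2 minus T3 ranged from -0.0646 to 0.339 with 1 array left out. The cause was not tested. Repeated quantile normalisation also evened the split of higher and lower genes in T8 minus parental cells (4285 and 2247 to 3246 and 3202), T2 minus T6 (460 and 952 to 883 and 1075), T2 minus T8 (1442 and 3301 to 2370 and 2553), T3 minus T8 (696 and 2054 to 1368 and 1648) and T6 minus T8 (696 and 1557 to 1292 and 1352).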
